A study of Caenorhabditis elegans with 30 samples.

Results

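Lysozymes are enzymes that cut the peptidoglycan wall of bacteria. Caenorhabditis elegans, which feeds on bacteria, uses them in digestion and in defence of the gut. Its genome holds a lys group, whose proteins resemble lysozymes of single-celled eukaryotes, and an ilys group of the type found in other invertebrates. Of 16 lysozyme genes that the array measures with probe sets annotated to them alone, 10 are described here: lys-1, lys-2, lys-4, lys-5, lys-7, lys-8, lys-10, ilys-2, ilys-3 and ilys-5. They were chosen by symbol, as every probe set annotated to only 1 of these genes, and this gave 12 of the 22625 probe sets. Of the genes, 9 had 1 probe set each and ilys-5 had 3, and all 12 probe sets passed the filter on low values. The probe sets of lys-2, lys-4, lys-7 and ilys-5 (6 of the 12) carry an x or s in their name, which Affymetrix gives to probe sets whose probes also match other transcripts, so that signal from near-identical genes cannot be told apart there.

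The study asked whether osmotic stress resistant (osr) mutants switch on, without salt, the genes that wild type worms use under hypertonic stress. Total RNA of whole, synchronized young adults sorted by a COPAS machine was hybridized to 30 Affymetrix arrays, in 10 groups of 3. The mutants were dpy-9(e12), dpy-10(e128), osm-8(n1518) and the pair osm-7(n1515) and osm-11(n1604), all kept on isotonic plates with 51 mM NaCl. The wild type strain N2 was kept on the same isotonic plates, or was moved as young adults to hypertonic plates with 200 mM NaCl for 15 min, 1 h or 6 h. For a whole generation of growth (1 generation), worms were put on such plates as L1 larvae and grew there to young adults. This group thus differs from the other exposures also in where the worms developed. osm-7 and osm-11 encode related secreted proteins, osm-8 a mucin-like protein, and dpy-9 and dpy-10 cuticle collagens whose mutants are short and fat. Each mutant group is a single allele, so strain background and mutation cannot be told apart. The same 3 isotonic N2 arrays are the reference of all 5 mutants and all 4 exposures.

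The values are normalized intensities, given here as log2, so that a difference of 1 is a doubling. The median intensity was 10.4 to 12.3 in the osm mutants and 13.9 to 14.5 in the dpy mutants, against 9.97 to 11.3 on the N2 arrays. Within a group the arrays correlated at 0.990 to 0.998. The probe sets of the mutated genes cannot check the strain labels: that of osm-7 averaged 3.19 in both osm-7 and isotonic N2, and none belongs to dpy-10 alone. The 2 probe sets of osm-11 were higher in osm-11 itself, at 9.57 and 10.98, against 7.72 and 8.47 in isotonic N2. Tests used limma with Benjamini-Hochberg adjustment over the 61.5% of probe sets whose third-highest array was at or above 3.24 on the log2 scale, the filter level. A probe set was called when its adjusted p was at most 0.01 and its fold at least 3. Differences are given with the standard error of the fit.

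Where lysozyme genes were called in the osr mutants, they were mostly higher than in isotonic N2. 7 of the 10 genes were called in at least 1 mutant, and 3 (lys-4, lys-5 and ilys-5) in none. The share of all genes called in at least 1 mutant is not given here, so these counts of genes are only a description. Of 60 pairs of a lysozyme probe set and a mutant, 21 were called higher and 1 lower, where 9.42% and 3.91% of all such pairs tested were called. lys-8 was called in all 5 mutants, ilys-2 and ilys-3 in 4 each, and lys-1, lys-2, lys-7 and lys-10 in smaller sets. In isotonic N2, ilys-2 and lys-10 were under the filter level on all arrays and ilys-3 on 2 of 3. They passed the filter through other groups, in which they are higher. Their higher calls, 4 for ilys-2, 4 for ilys-3 and 2 for lys-10, are part of the 21. Under salt only 2 genes were called in N2, ilys-2 and lys-7, in 2 pairs of a probe set and an exposure that were higher and 1 that was lower, out of 48 (0.981% and 0.332% over all pairs tested).

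**Figure D1:**
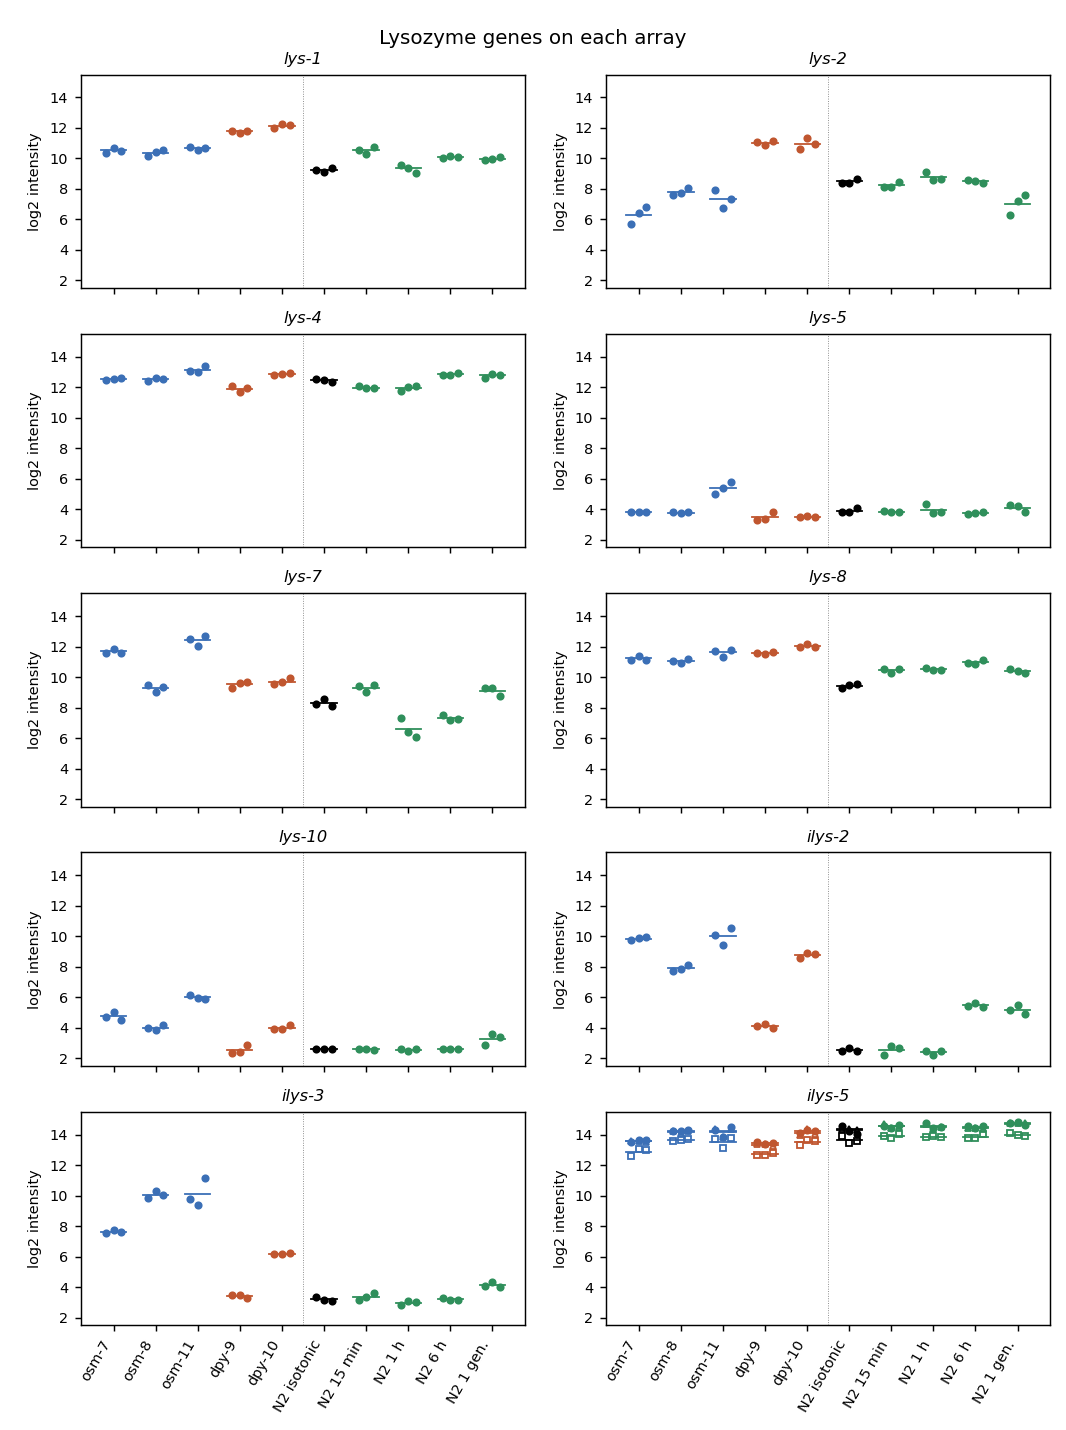
Log2 intensity (vertical axis) of the 10 lysozyme genes on each of the 30 arrays, by group (horizontal axis). Points are arrays, short lines are group means of 3 arrays, and the dotted line parts the mutants (blue osm, orange dpy) from N2 (black isotonic, green 200 mM NaCl). For ilys-5 the 3 probe sets have different symbols. ilys-2 averages 9.85 in osm-7 and 10.02 in osm-11, against 2.53 in isotonic N2, while ilys-5 stays between 12.6 and 14.8 throughout.

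Against isotonic N2, 5 of 12 probe sets were called higher in osm-7 and 1 lower, where 1.85% and 0.267% of all probe sets tested were called in those directions. In osm-11 5 were called higher, with a background of 3.18%. In osm-8 3 were called higher, with a background of 7.91%. In dpy-9 3 were called higher, with a background of 16%, and in dpy-10 5, with a background of 18.1%. Because so many probe sets of all kinds were called in the dpy mutants, the number of calls there says little about the lysozyme genes as a group. The median difference over the 12 probe sets was 1.45 in osm-11, 0.68 in osm-7, 0.54 in osm-8, 1.40 in dpy-10 and 0.08 in dpy-9. Over all probe sets tested it lay between -0.23 (dpy-9) and -0.07 (osm-7). Without the fold limit, 33 of the 60 pairs passed the test higher (background 17.2%) and 9 lower (background 20%).

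**Figure D2:**
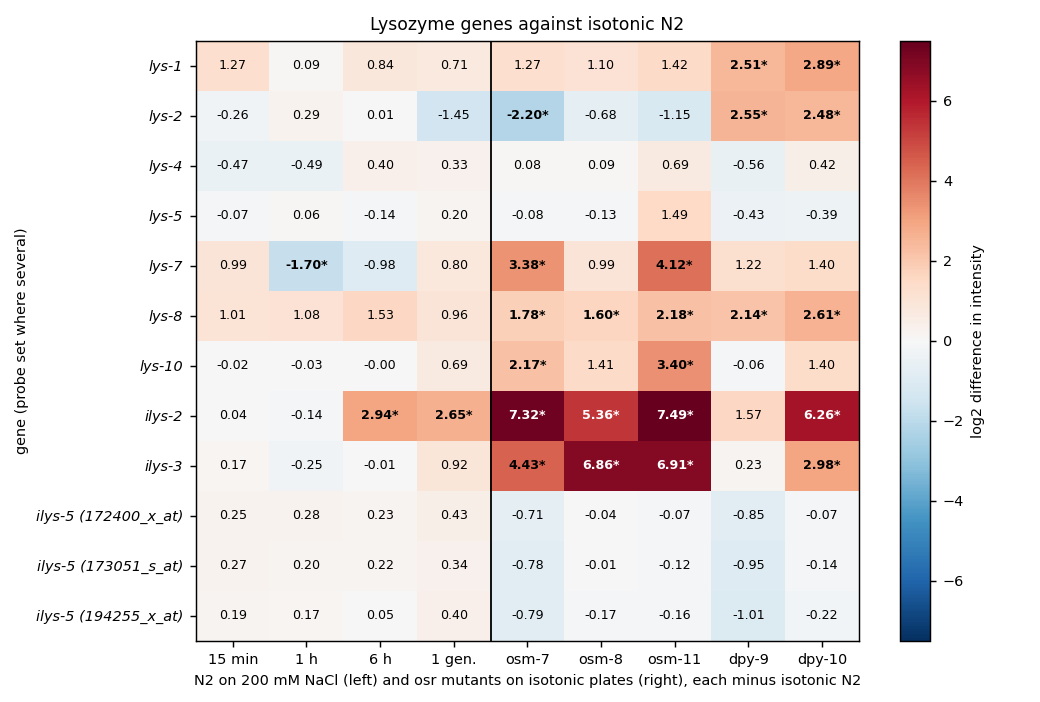
Log2 difference in intensity from isotonic N2 for each lysozyme probe set (rows), at 4 times of N2 on 200 mM NaCl and in 5 osr mutants (columns). Bold values with a star were called (adjusted p of at most 0.01 and at least 3-fold). Red is higher and blue lower than isotonic N2: ilys-2 and ilys-3 reach 7.49 and 6.91 in osm-11, and lys-2 is blue in osm-7 (-2.20) but red in dpy-9 (2.55).

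ilys-2 is an invertebrate-type lysozyme gene. Its 3 arrays stood at 9.74, 9.89 and 9.93 in osm-7, 10.08, 9.43 and 10.55 in osm-11 and 7.73, 7.84 and 8.11 in osm-8. They stood at 8.60, 8.93 and 8.84 in dpy-10 but only 4.11, 4.24 and 3.96 in dpy-9, against 2.46, 2.66 and 2.48 in isotonic N2. Every mutant array lay above every isotonic N2 array. Because all isotonic N2 arrays were under the filter level of 3.24, the fold over N2 is given as a lower limit, set against that level. ilys-2 was at least 97.7-fold higher in osm-7 (adjusted p = 1.43e-12), at least 110-fold in osm-11 (adjusted p = 2.01e-12), at least 25.1-fold in osm-8 (adjusted p = 8.73e-12) and at least 46.8-fold in dpy-10 (adjusted p = 3.93e-13). In dpy-9 it was at least 1.82-fold higher (adjusted p = 5.11e-06) and was not called. Calls go by the fitted difference, which is no measure of the fold where 1 group is under the filter level. Without isotonic N2 replicate 2 or without dpy-9 replicate 3 that difference was 1.63 or 1.64 and ilys-2 was called.

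ilys-3 encodes a lysozyme of the pharynx and intestine that takes part in killing ingested bacteria. Its gene is the direct neighbour of ilys-2, followed by ilys-1, in the RefSeq annotation of WBcel235. ilys-3 arrays read 9.81, 9.40 and 11.16 in osm-11, 9.85, 10.30 and 10.05 in osm-8 and 7.52, 7.75 and 7.65 in osm-7. They read 6.15, 6.18 and 6.25 in dpy-10 but 3.49, 3.52 and 3.31 in dpy-9, against 3.37, 3.14 and 3.12 in isotonic N2. The dpy-9 arrays overlapped those of isotonic N2, and the other 4 mutants lay wholly above them. The differences were 6.91 ± 0.297 in osm-11 (adjusted p = 1.53e-10), 6.86 in osm-8 (adjusted p = 2.83e-11), 4.43 in osm-7 (adjusted p = 2.67e-08) and 2.98 in dpy-10 (adjusted p = 1.71e-07), with the same standard error. In dpy-9 the difference was 0.23 (adjusted p = 0.494). With 32 added to each intensity the dpy-10 difference was 1.35, under the fold limit. The probe set of ilys-1, the third gene in the row, was below the filter level on all 30 arrays.

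lys-10 lies between 2 histone genes, his-30 and his-31. Its arrays read 4.74, 5.06 and 4.52 in osm-7, 6.18, 5.97 and 5.89 in osm-11, 3.97, 3.87 and 4.22 in osm-8 and 3.94, 3.93 and 4.16 in dpy-10, against 2.61, 2.59 and 2.62 in isotonic N2, below the filter level. These 4 mutants lay wholly above isotonic N2. Against the filter level lys-10 was at least 2.89-fold higher in osm-7 (adjusted p = 1.24e-07) and at least 6.81-fold higher in osm-11 (adjusted p = 6.06e-10), and both were called by their fitted differences of 2.17 and 3.40. In osm-8 it was at least 1.71-fold higher (adjusted p = 3.57e-06) and in dpy-10 at least 1.7-fold (adjusted p = 1.13e-06), and neither was called. In dpy-9 all 3 arrays were under the filter level, as in isotonic N2. The calls of lys-10 depend on how low values are treated: with 32 added to each intensity the differences were 0.65 in osm-7 and 1.34 in osm-11.

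lys-7, a lysozyme gene known as a target of the insulin-regulated factor DAF-16, was called higher in osm-7 and osm-11. Its arrays stood at 11.60, 11.84 and 11.60 in osm-7 and at 12.47, 12.06 and 12.71 in osm-11, against 8.24, 8.54 and 8.11 in isotonic N2. The differences were 3.38 ± 0.187 in osm-7 (adjusted p = 2.78e-09) and 4.12 in osm-11 (adjusted p = 2.9e-10). The other 3 mutants also lay wholly above isotonic N2, at 9.03 to 9.49 in osm-8, 9.53 to 9.92 in dpy-10 and 9.25 to 9.65 in dpy-9. Their differences of 0.99, 1.40 and 1.22 passed the test (adjusted p = 0.000431, 4.78e-06 and 2.49e-05) and were under 3-fold. After quantile normalization that of dpy-10 was 1.62, just past the limit.

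lys-8 was higher in every mutant. The arrays read 11.97 to 12.16 in dpy-10, 11.53 to 11.61 in dpy-9, 11.34 to 11.77 in osm-11, 11.12 to 11.38 in osm-7 and 10.92 to 11.16 in osm-8, against 9.29, 9.46 and 9.56 in isotonic N2. No array of a mutant overlapped isotonic N2. The differences, each ± 0.135, were 2.61 in dpy-10 (adjusted p = 7.14e-11), 2.14 in dpy-9 (adjusted p = 8.75e-10), 2.18 in osm-11 (adjusted p = 7.91e-09), 1.78 in osm-7 (adjusted p = 1.18e-07) and 1.60 in osm-8 (adjusted p = 8.31e-08). The osm-8 call was at the edge of the fold limit, at 1.52 without isotonic N2 replicate 1, 1.54 without osm-8 replicate 3, 1.51 with arrays centred on their medians and 1.55 with 32 added to each intensity.

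lys-1 and lys-2 are neighbours in the genome, followed by lys-3, and both were called higher in the dpy mutants and in no osm mutant. lys-1 arrays read 11.98, 12.24 and 12.22 in dpy-10 and 11.82, 11.68 and 11.80 in dpy-9, against 9.26, 9.14 and 9.37 in isotonic N2. Its differences were 2.51 ± 0.132 in dpy-9 (adjusted p = 9.8e-11) and 2.89 in dpy-10 (adjusted p = 1.73e-11). In the osm mutants lys-1 was also higher, by 1.42 in osm-11, 1.27 in osm-7 and 1.10 in osm-8 (adjusted p of 9.9e-07, 4.52e-06 and 5.12e-06), below the fold limit. Quantile normalization gave 1.64 in osm-11, above it.

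lys-2 was higher in both dpy mutants and lower in osm-7. Its arrays read 10.65, 11.32 and 10.96 in dpy-10 and 11.08, 10.87 and 11.17 in dpy-9, against 8.42, 8.41 and 8.64 in isotonic N2. The differences were 2.55 ± 0.283 in dpy-9 (adjusted p = 7.13e-07) and 2.48 in dpy-10 (adjusted p = 8.33e-07). In osm-7 the arrays fell to 5.68, 6.39 and 6.80, a difference of -2.20 from isotonic N2 (adjusted p = 4.52e-05). This was the only lower call among the members in a mutant. In osm-11 the difference of -1.15 passed the test below the fold limit (adjusted p = 0.0078), and in osm-8 it was -0.68 (adjusted p = 0.0537). lys-1 and lys-2 thus passed the test in opposite directions in osm-7 and osm-11. The probe set of lys-3 was below the filter level on all 30 arrays.

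The summed level of intestinal marker genes lay above isotonic N2 in every mutant except osm-7, whose range overlapped that of isotonic N2. The rise was not confined to the dpy mutants, since the level in osm-8 was about that in dpy-9. The part of these markers in the lysozyme differences was not tested. Of 7 intestinal markers, 2 (ges-1 and ifb-2) were called higher in dpy-9 (background 16%), 3 (with vha-6) in dpy-10 (background 18.1%), and 1 (ifb-2) in osm-8 (background 7.91%). None was called in osm-7 or osm-11 by limma, where 4 and 5 had an unadjusted p below 0.05. In each of these mutants 4 had an adjusted p of at most 0.01. The log2 of their summed intensity was 15.59 to 15.69 in dpy-10, 15.40 to 15.53 in dpy-9, 15.41 to 15.51 in osm-8, 15.04 to 15.23 in osm-11 and 14.67 to 14.90 in osm-7, against 14.72 to 14.78 in isotonic N2. All 3 body wall muscle markers were called higher in dpy-9 and dpy-10, and their summed level was 13.49 to 13.89 and 13.68 to 13.86, against 11.72 to 11.79 in isotonic N2. In osm-8 1 of them, myo-3, was called higher. Their summed level was 13.03 to 13.23 in osm-8, 12.01 to 12.80 in osm-11 and 12.48 to 12.91 in osm-7, also above isotonic N2. In both dpy mutants 5 of 6 oocyte and germ line markers were called lower. Over the 5 mutants pooled 3.91% of all pairs tested were called lower, and in osm-7 0.267% of all probe sets. The pooled share is therefore not that of the dpy mutants, which is not given here. Their summed level was 13.16 to 13.54 in dpy-9 and 12.86 to 13.09 in dpy-10, against 15.09 to 15.28 in isotonic N2. It was 14.22 to 14.39 in osm-8, 14.74 to 14.93 in osm-11 and 14.83 to 15.03 in osm-7, also below isotonic N2. None was called by limma in the osm mutants, where 6, 2 and 0 passed the test in osm-8, osm-11 and osm-7. All 3 tested sperm markers were called higher in osm-8 and in both dpy mutants. Of the pharyngeal markers, myo-2 and tnc-2 were called higher in dpy-9 and tnc-2 in dpy-10. Of the hypodermal ones, elt-3 was called higher in osm-8, osm-11 and dpy-10, and no neuronal marker was called in a mutant. Since whole worms were used, fewer cells of a type and less RNA per cell cannot be told apart.

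lys-4, lys-5 and ilys-5 were called in no mutant. lys-4 group means lay between 11.89 in dpy-9 and 13.14 in osm-11, against 12.44 in isotonic N2, and its difference in osm-11 was 0.69 ± 0.133 (adjusted p = 0.00133). It was lower by -0.56 in dpy-9 (adjusted p = 0.00135) and higher by 0.42 in dpy-10 (adjusted p = 0.00966). lys-5, which lies between lys-4 and lys-6, was 5.02, 5.38 and 5.76 in osm-11, against 3.82, 3.82 and 4.08 in isotonic N2. That difference of 1.49 ± 0.169 passed the test (adjusted p = 9.1e-06) below the fold limit, and without osm-11 replicate 1 it was 1.67, above it. A probe set shared by lys-5 and lys-6, at 6.81 in isotonic N2, differed by 0.39 in osm-11 (adjusted p = 0.43), with overlapping arrays. In the other 4 mutants lys-5 on its own probe set differed from isotonic N2 by -0.43 to -0.08. ilys-5 was lower in osm-7 and dpy-9 on all 3 of its probe sets, by 0.71 to 0.79 and 0.85 to 1.01 on the log2 scale (highest adjusted p = 0.00775 in osm-7 and 0.000193 in dpy-9). In osm-8, osm-11 and dpy-10 its differences lay between -0.22 and -0.01 and did not pass.

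The mutants were then compared with each other, in 48 pairs of a probe set and a comparison, of which 7 were called higher and 3 lower. osm-7 and osm-11 together, against dpy-9 and dpy-10 together, had 4 probe sets called higher and 1 lower, with backgrounds of 4.34% and 11.8%. ilys-3 was higher in the osm pair by 4.06 ± 0.210 (adjusted p = 3.98e-11), ilys-2 by 3.49 ± 0.147 (adjusted p = 3.03e-12), lys-7 by 2.44 ± 0.132 (adjusted p = 7.68e-11) and lys-10 by 2.12 ± 0.116 (adjusted p = 8.99e-11). With 32 added to each intensity that of lys-10 was 0.83 and no longer called. lys-2 was lower in the osm pair, with a mean of 6.82 against 11.01 in the dpy pair and a difference of -4.19 ± 0.200 (adjusted p = 1.49e-11). lys-1 was 1.36 lower in the osm pair on the log2 scale, which passed the test under the fold limit (adjusted p = 1.72e-09). For lys-8 the difference was -0.39 ± 0.0953 (adjusted p = 0.00153). Where strains are joined in a pair, here and for osm-8 below, standard errors and adjusted p come from arrays within strains. They do not measure the spread between strains of a kind. ilys-2 differed by 4.69 between dpy-10 and dpy-9, and ilys-3 by 2.49 between osm-11 and osm-7.

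**Figure D3:**
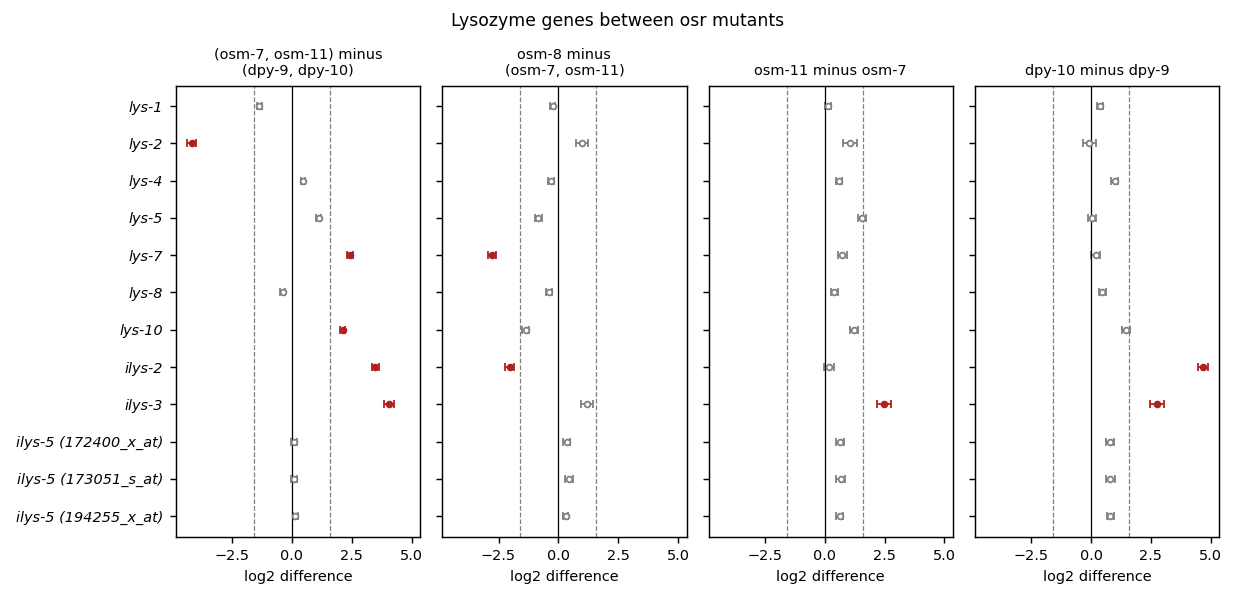
Log2 difference in intensity (horizontal axis) between osr mutants for each lysozyme probe set (vertical axis), in 4 comparisons. Points are fitted differences, bars their standard errors, red filled points were called, and dashed lines mark 3-fold. lys-2 lies far to the left (-4.19) in the first panel, and ilys-2 (4.69) and ilys-3 (2.75) to the right in the last.

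Within each kind the mutants were not alike. dpy-10 exceeded dpy-9 in 2 of 12 probe sets, with a background of 0.224%: ilys-2 by 4.69 ± 0.208 (adjusted p = 1.42e-09) and ilys-3 by 2.75 ± 0.297 (adjusted p = 4.19e-05). The ilys-3 value was 1.29 with 32 added to each intensity, under the fold limit. lys-1 and lys-2, called in both dpy mutants, differed between dpy-10 and dpy-9 by 0.38 and -0.07 (adjusted p = 0.0982 and 0.96). lys-10 was at least 1.7-fold higher in dpy-10 than in dpy-9 (adjusted p = 6.15e-05) and was not called, but it was called without dpy-9 replicate 3, at a fitted difference of 1.63. osm-11 exceeded osm-7 in 1 of 12 probe sets, with a background of 0.447%. That was ilys-3, with a difference of 2.49 ± 0.297 (adjusted p = 0.000141), while ilys-2 differed between them by 0.17 (adjusted p = 0.981). lys-5 was 1.57 higher in osm-11 than in osm-7 (adjusted p = 5.54e-05), just under the limit, and 1.75 without osm-11 replicate 1.

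osm-8 was set against osm-7 and osm-11 together. In osm-8 2 of 12 probe sets were called lower, with a background of 0.923%: lys-7 by -2.76 ± 0.162 (adjusted p = 9.98e-10) and ilys-2 by -2.04 ± 0.180 (adjusted p = 1.81e-07). ilys-3 ran the other way, at 10.07 in osm-8 against a mean of 8.88 in the pair, a difference of 1.19 ± 0.257 that passed the test (adjusted p = 0.00234) under 3-fold. For ilys-3 the osm-8 and osm-11 arrays overlapped, and osm-7 lay below both. For ilys-2 it was osm-7 and osm-11 that overlapped, with osm-8 below both and also below dpy-10.

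In N2 on 200 mM NaCl the called genes were ilys-2, higher at the 2 late times, and lys-7, lower at 1 h. At 15 min 0 of 12 probe sets were called by limma, where 1.56% of all tested were called in either direction, and 5 had an unadjusted p below 0.05. At 1 h 1 was called lower (background 0.166%), and at 6 h and 1 generation 1 was called higher each (background 0.7% and 0.959%). The median difference of the 12 from isotonic N2 was 0.18, 0.07, 0.13 and 0.56 at the 4 times, against -0.07, -0.01, -0.01 and -0.04 over all probe sets tested. Without the fold limit 12 of the 48 pairs passed the test higher (background 5.09%) and 4 lower (background 3.04%). With 32 added to each intensity none of the 3 calls was kept.

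ilys-2 was the gene called higher under salt. Its arrays read 2.46, 2.66 and 2.48 on isotonic plates, 2.23, 2.82 and 2.67 at 15 min and 2.47, 2.20 and 2.50 at 1 h. They read 5.42, 5.60 and 5.39 at 6 h and 5.14, 5.52 and 4.90 at 1 generation. All arrays of the first 3 groups were under the filter level, and all of the last 2 were above it. ilys-2 was thus at least 4.68-fold higher at 6 h (adjusted p = 3.35e-07) and at least 3.84-fold at 1 generation (adjusted p = 9.8e-07) than on isotonic plates, and the 6 h and 1 generation arrays overlapped. At 6 h it was at least 4.68-fold higher than at 1 h (adjusted p = 2.39e-07), the only member called higher between these times, where 0.346% of all probe sets were. These levels lay above those of dpy-9 and below those of the other 4 mutants.

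lys-7 was lower at 1 h than on isotonic plates. Its arrays read 8.24, 8.54 and 8.11 on isotonic plates, 9.43, 8.99 and 9.46 at 15 min, 7.34, 6.40 and 6.06 at 1 h, 7.48, 7.20 and 7.28 at 6 h and 9.28, 9.27 and 8.74 at 1 generation. At 15 min the difference from isotonic N2 was 0.99 ± 0.276 (adjusted p = 0.0216), which did not pass. At 1 h it was -1.70 (adjusted p = 0.00142) and lys-7 was called lower. At 6 h it was -0.98 (adjusted p = 0.043) and at 1 generation 0.80 (adjusted p = 0.0783), and neither passed. The 1 h and 6 h arrays overlapped, with a difference of 0.72 for 6 h minus 1 h (adjusted p = 0.127). Between other successive times, lys-7 was lower at 1 h than at 15 min (a difference of -2.70, adjusted p = 7.73e-05, background 0.224%) and higher at 1 generation than at 6 h (1.78, adjusted p = 0.00121, background 0.801%). The call at 1 h against isotonic N2 is near the fold limit: the difference was -1.58 without isotonic N2 replicate 2, -1.43 without 1 h replicate 3, -1.58 after quantile normalization and -1.41 with 32 added to each intensity.

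lys-8 was higher at every exposure, under 3-fold each time. The arrays read 9.29 to 9.56 on isotonic plates, 10.27 to 10.55 at 15 min, 10.48 to 10.60 at 1 h, 10.86 to 11.11 at 6 h and 10.29 to 10.51 at 1 generation. No exposed array overlapped the isotonic ones. The differences were 1.01, 1.08, 1.53 and 0.96 (each ± 0.102), with adjusted p of 2.93e-05, 2.3e-05, 1.15e-06 and 5.3e-05. At 6 h the value was 1.59 without isotonic N2 replicate 3 and 1.66 after quantile normalization, both past 3-fold. It then was lower at 1 generation than at 6 h by -0.57 (adjusted p = 0.00359).

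lys-1 was higher at 15 min, by 1.27 ± 0.131 (adjusted p = 3.34e-05), with arrays at 10.56, 10.30 and 10.72, against 9.26, 9.14 and 9.37 on isotonic plates. At 1 h it was back at 9.07 to 9.58, a difference of 0.09 (adjusted p = 0.774), and lower than at 15 min by -1.19 (adjusted p = 0.00015). At 6 h and 1 generation it was higher again, by 0.84 and 0.71 (adjusted p = 0.000937 and 0.00291).

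At 1 generation 2 further genes near background, ilys-3 and lys-10, passed the test under the fold limit. ilys-3 read 4.03 to 4.32 at 1 generation, against 3.12 to 3.37 on isotonic plates, a difference of 0.92 ± 0.128 (adjusted p = 0.000402). At 15 min, 1 h and 6 h the differences of ilys-3 lay between -0.25 and 0.17 and did not pass. lys-10 read 2.89, 3.58 and 3.41 at 1 generation, so that its first array was under the filter level, and it was at least 1.03-fold higher than on isotonic plates (adjusted p = 0.00333).

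lys-2 was lower after 1 generation, at 6.26, 7.24 and 7.61 against 8.42, 8.41 and 8.64 on isotonic plates. The difference of -1.45 ± 0.266 passed the test (adjusted p = 0.00276) below the fold limit. Without 1 generation replicate 3 it was -1.74, past the limit, both against isotonic N2 and against 6 h. At 15 min, 1 h and 6 h lys-2 differed from isotonic N2 by -0.26 to 0.29. lys-4 was lower at 15 min and 1 h, by -0.47 and -0.49 (adjusted p = 0.00396 and 0.00458), and higher at 6 h than at 1 h by 0.89 (adjusted p = 4.81e-05). lys-5 differed by -0.14 to 0.20 at the 4 times, with no adjusted p below 0.452. The 3 probe sets of ilys-5 differed by 0.05 to 0.43. Of these only the one that differed by 0.40 at 1 generation passed the test (adjusted p = 0.0079), while the other 2 did not at that time (adjusted p = 0.0389 and 0.067).

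None of the 7 intestinal markers was called by limma at an exposure, where 6 had an unadjusted p below 0.05 at each of the 4 times and 3, 2, 4 and 4 an adjusted p of at most 0.01. Their summed log2 intensity was 14.72 to 14.78 on isotonic plates, 14.94 to 15.09 at 15 min, 14.90 to 15.02 at 1 h, 15.10 to 15.22 at 6 h and 14.93 to 15.05 at 1 generation. The sperm markers gsp-3 and gsp-4 were called higher at 15 min, with a summed level of 7.23 to 7.30, against 5.22 to 5.58 on isotonic plates. At 1 h gsp-3 was called higher, with a summed level of 6.23 to 6.70. Over the 4 exposures pooled, 0.981% of all pairs tested were called higher. At 6 h the sum was 5.02 to 5.09, and at 1 generation it was 6.11 to 6.72 with no call. Body wall muscle sums were 12.37 to 12.71 at 15 min, 12.63 to 12.65 at 1 h and 12.42 to 12.67 at 1 generation. On isotonic plates and at 6 h they were 11.72 to 11.79 and 11.69 to 11.83. Oocyte and germ line sums were 14.86 to 14.93 at 15 min and 14.87 to 14.97 at 1 h. They were 15.17 to 15.24 at 6 h and 14.92 to 15.01 at 1 generation, against 15.09 to 15.28 on isotonic plates. By limma no muscle or oocyte marker was called. At the 4 times 2, 2, 0 and 2 of the muscle and 3, 1, 0 and 1 of the oocyte markers passed the test. The part of all these markers in the lysozyme values was not tested.

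The other 6 lysozyme genes with their own probe sets were lys-3, lys-6, lys-9, ilys-1, ilys-4 and ilys-6, of which only lys-6 and ilys-4 passed the filter. ilys-4 was called higher in dpy-9 by 2.80 ± 0.297 (adjusted p = 4.16e-07) and in dpy-10 by 3.11 (adjusted p = 1.06e-07), and at 1 h of salt by 1.85 ± 0.181 (adjusted p = 3.31e-05). Between the mutants it was lower in the osm pair than in the dpy pair by -2.07 (adjusted p = 2.04e-07), the direction of lys-2. lys-6, the neighbour of lys-5, was called lower in dpy-9 by -3.16 ± 0.372 (adjusted p = 1.36e-06) and in osm-7 by -1.73 (adjusted p = 0.0047). A probe set shared by lys-5 and lys-6 was -3.79 in dpy-9 (adjusted p = 4.86e-08), where the probe set of lys-5 alone differed by -0.43 (adjusted p = 0.0321). In dpy-10 the shared probe set was also called lower (-1.79, adjusted p = 0.000146), and that of lys-5 alone differed by -0.39 (adjusted p = 0.0497). The probe set of lys-6 alone differed there by -1.55 (adjusted p = 0.00137), under the fold limit. In osm-7 the shared probe set differed by -1.08 and did not pass (adjusted p = 0.0394), and the lys-6 arrays spread from 3.66 to 5.36.

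Genes reported to regulate lysozyme or intestinal defence genes were taken as a list of 22, of which 19 were tested. None was called by limma at the 4 exposures, where 5, 10, 5 and 3 had an unadjusted p below 0.05. An adjusted p of at most 0.01 was reached by 3, 2, 0 and 2 of them. In osm-7 none was called by limma, where 6 had an unadjusted p below 0.05 and 2 an adjusted p of at most 0.01. In osm-8 1 was called, elt-3, a GATA factor of the hypodermis, by 1.91 ± 0.259 (adjusted p = 1.89e-05). In osm-11 elt-3 (1.64, adjusted p = 0.000253) and tir-1, an adaptor upstream of the p38 kinase pathway (2.35 ± 0.397, adjusted p = 0.000453), were called. In dpy-9 3 were called higher: tir-1 (1.92), the intestinal GATA factor gene elt-7 (2.07) and the bZIP factor gene zip-2 (1.99), with adjusted p of 0.000424, 6.12e-07 and 7.46e-08. In dpy-10 6 were called higher (tir-1, elt-3, elt-7, zip-2, sma-4 and bar-1) and 2 lower (daf-4 and age-1). Over the 5 mutants pooled, 3.91% of all pairs tested were called lower. That is not the share in dpy-10, which is not given here, so the 2 lower calls cannot be judged by it. The backgrounds for higher calls were 18.1% in dpy-10, 16% in dpy-9, 3.18% in osm-11 and 7.91% in osm-8, so that 1 of 19 in osm-8 was below the background and 3 of 19 in dpy-9 near it. The median difference over the 19 was 0.18 in osm-7, 0.26 in osm-11, 0.35 in osm-8, 0.79 in dpy-10 and 0.78 in dpy-9, against -0.23 to -0.07 over all probe sets tested. Below the fold limit elt-3 also passed the test at 15 min (1.04, adjusted p = 0.00346), 1 h (1.20, adjusted p = 0.00198) and 1 generation (1.36, adjusted p = 0.000717).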

How the data were processed

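Affymetrix arrays of whole young adults were read out as 1 intensity per probe set. The authors normalized the scans with GC-RMA in Partek, and the deposited intensities are linear. For each time point they chose the best 3 of several RNA preparations by RNA quality, so p-values there measure the spread among those 3. For the mutants the methods do not say how preparations were chosen. Here log2 was taken, with no further normalization or pseudocount. limma 3.58.1 in R 4.3.3 (lmFit, eBayes) was fitted to 15 N2 arrays and, separately, to 18 isotonic arrays, over 61.5% of the 22548 probe sets that are no controls, as many as the methods call present, ranked here by their third-highest array. The limits of 0.01 and 3-fold come from the methods, which applied them to false discovery rates of SAM across the N2 series; here they were set on limma's Benjamini-Hochberg adjusted p in each comparison. The fit was tested on simulated data. Tables were handled in Python 3.11.15 with numpy 2.4.6, pandas 2.3.3 and matplotlib 3.10.9.

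Gene names came from the platform annotation, in which 20766 probe sets have 1 gene, 887 several and 895 none, beside 77 controls. The number of arrays limits the precision. All member probe sets are described. The members, the lists of other lysozymes, regulators and cell type markers, and the tests were chosen with earlier results of these data known. Genes most like a member were the 5 probe sets with the highest Pearson r over group means, for the 3 members of widest range. A planned motif search in promoters was not run. Alternatives were no filter, 32 added to intensities, quantile or median scaling, all 30 arrays in 1 fit, another variance prior, a replicate block, no fold limit, no shared-match probe sets, and leaving out each array.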

Additional observations from a re-analysis of the deposited data

Results flagged for a closer look

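Members whose response to salt differed between successive times, by limma, were lys-7 at 1 h minus 15 min (-2.70) and at 1 generation minus 6 h (1.78), and ilys-2 at 6 h minus 1 h (3.08). Members that differed between osr mutants were, for osm-7 and osm-11 minus dpy-9 and dpy-10, ilys-2 (3.49), ilys-3 (4.06), lys-7 (2.44), lys-10 (2.12) and lys-2 (-4.19). For osm-8 minus osm-7 and osm-11 they were ilys-2 (-2.04) and lys-7 (-2.76), for osm-11 minus osm-7 ilys-3 (2.49), and for dpy-10 minus dpy-9 ilys-2 (4.69) and ilys-3 (2.75). The dpy pair mean of ilys-2 joins 8.79 in dpy-10 and 4.10 in dpy-9.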

How the results depend on the processing

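Among 192 pairs of a member probe set and a comparison, no called difference turned its direction under the alternatives run. No filter on low values, 1 fit of all 30 arrays, another variance prior and the replicate block each kept all 192 on the same side of the calling rule. The replicate block gave 3, 22, 3 and 10 calls (exposures, mutants, successive times, strains), the same counts as without it. The replicate numbers gave no clear sign of paired arrays. This was checked on deviations from the group means, between arrays of different groups. Same-numbered arrays correlated at -0.46 to 0.41 (median 0.01), and arrays of different number at a median of 0. By their mean correlation, 14 of 30 arrays were closest to arrays of their own number. With 32 added to each intensity, calls at the exposures went to 0, and 10 calls were lost in all, among them ilys-2 at 6 h (1.01) and at 1 generation (0.86) and ilys-3 in dpy-10 (1.35). Adding a constant shrinks differences of low values by construction. Without the fold limit 16, 42, 10 and 24 pairs passed in the same order. Without probe sets that match other transcripts, the calls between successive times went to 1, since lys-7 was left out. Leaving out single arrays gave 2 to 4 calls at the exposures, 21 to 23 in the mutants, 3 to 4 between successive times and 10 to 11 between strains. Levels under 3.24 on the log2 scale have no order, which limits ilys-2, lys-10 and ilys-3 in N2.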

Other observations

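Over the 10 group means, the genes whose profile was most like that of ilys-2 were mtl-1, a metallothionein gene (r = 0.960), spig-15 (0.949), spp-24, which encodes a saposin-like protein (0.930), Y113G7A.13 (0.924) and cnc-3, which encodes a caenacin antimicrobial peptide (0.923). For ilys-3 they were Y71H2B.4 (0.948), a gene known here by its sequence name (0.947), the fatty acid desaturase gene fat-3 (0.937), the lysosomal lipase gene lipl-1 (0.936) and R07C12.1 (0.935). For lys-7 they were C14C6.2 on 2 probe sets (0.976 and 0.970), C14C6.5 on 2 probe sets (0.955 and 0.946) and the collagen gene col-95 (0.948). Among the members, ilys-2 and ilys-3 each correlated with lys-10 at 0.90 and with each other at 0.86, lys-7 correlated with lys-10 at 0.85, lys-1 with lys-8 at 0.85, and lys-1 with its neighbour lys-2 at 0.59. The group means of Y113G7A.13 ran from 2.76 to 3.38 and those of R07C12.1 from 2.95 to 4.18, so that the lowest of each lay below the filter level of 3.24. All these values rest on the same arrays and are a description.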
